A study of Homo sapiens and Mus musculus with 20 samples.

Results

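The HOX genes encode homeodomain transcription factors that give cells of the body axis their positional identity, and fibroblasts keep a HOX pattern that reflects the site they were taken from. They were chosen here by name, as symbols made of HOX, a cluster letter A to D and a paralog number. Of the 38 such genes considered here from the GENCODE annotation of hg38, 20 were listed in at least 1 IMR90 table, out of 17554 genes listed in all. IMR90 is a fibroblast line from human fetal lung with a wild-type genotype by its labels. Bulk RNA-seq of its total RNA was available as 12 libraries in 6 groups of 2. A485, an inhibitor of the acetyltransferase p300, was set against Control2. MS-275, which inhibits the class I histone deacetylases, was set against Control3. Pyruvate, which the study gave to senescent cells, was set against Control6. All control groups are labelled as untreated. Age, passage, dose and time are not given in the labels of these groups, and all groups come from 1 cell line. The labels do not say whether replicates came from separate cultures, so the p-values measure only the spread between these libraries, which may be technical.

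The genes sit in 4 clusters, and genes with the same paralog number descend from a common ancestral gene. Within a cluster the low numbers act towards the head and the high numbers towards the tail and in the limbs and genital tract. The proteins bind DNA together with TALE homeodomain cofactors (PBX, MEIS and PKNOX), and retinoic acid is a known inducer of the low-numbered genes. MLL (KMT2A) complexes are known to maintain their transcription, and acetylation by p300 and deacetylation by class I deacetylases both act at their regulatory regions.

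Values are given as normalized reads, which the authors obtained by dividing each count by the DESeq2 size factor of its library. Depth ranged from 24179065 to 46971227 reads per library. There were 18 HOX genes in the A485 table, 20 in the MS-275 table and 12 in the pyruvate table, and genes not listed in a table were not analysed there. Each listed gene had at least 10 reads in its second-highest library in the A485 and MS-275 tables and at least 20 in the pyruvate table. All 10 fibroblast markers were listed in each table, and together they took 1.29% to 3.29% of the values of a library. Of the other markers, 2 of 6 epithelial (EPCAM and CLDN4), 2 of 4 endothelial (KDR and VWF), 1 of 4 immune (CD14) and 1 of 3 neural genes (TUBB3) were listed in the A485 and MS-275 tables, and no such list summed to more than 0.000788% of a library. Fold changes are on the log2(value + 1) scale, which understates the change of low genes. limma was run on every gene averaging 10 or more normalized reads across a treatment and its control, and p-values were adjusted by Benjamini-Hochberg across the whole table. The word called is kept for genes that had an adjusted p under 0.05 and an absolute fold change beyond 1 in log2 units.

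Control IMR90 cells expressed HOXB2 to HOXB7 and HOXA5 at the highest median levels among HOX genes. Of the genes considered, 9 of 10 HOXA, 8 of 10 HOXB and 3 of 9 HOXC genes were listed in an IMR90 table, and none of 9 HOXD genes was. By paralog number, 16 of 22 genes numbered 1 to 8 were listed and 4 of 16 numbered 9 to 13, namely HOXA9, HOXA10, HOXA11 and HOXB9. Levels between genes were compared as reads per kb of annotated exon, scaled to the same number of listed reads (1000000) in each library, here called the level. Across the control libraries, 7 genes had a median level above 5, a limit chosen after the values were seen, and these were HOXA5, HOXB2, HOXB3, HOXB4, HOXB5, HOXB6 and HOXB7.

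HOXB5 (chromosome 17, 48591257 to 48593779, minus strand) led with levels of 20.1 to 50.4, median 24.3. HOXB7 (chromosome 17, 48607232 to 48633572, minus strand) followed at 11.01 to 25.8, median 15.3. HOXA5 (chromosome 7, 27141052 to 27143681, minus strand), a gene needed for normal lung and tracheal development, ranged from 2.95 to 21.7, median 14.7. Its level was 11.5 and 21.7 in the Control2 libraries, 17.8 and 18.5 in Control3, and 2.95 and 4.59 in Control6, so the Control6 libraries lay below the others. Control groups came from separate experiments and were normalized separately, so cells, batch and group cannot be told apart there. HOXB2 (chromosome 17, 48540894 to 48545109, minus strand) measured 11.01 to 20.1, median 14.4, HOXB4 (chromosome 17, 48575507 to 48578350, minus strand) 8.15 to 21.4, median 13.5, HOXB6 (chromosome 17, 48595751 to 48604992, minus strand) 7.08 to 15.97, median 11.1 and HOXB3 (chromosome 17, 48548870 to 48604912, minus strand) 9.71 to 11.96, median 11.01. Each of these 7 genes overlapped its neighbour in the order of medians, so the order among them is not resolved.

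The next gene by median level, HOXA2, stayed at or below 2.45, under the lowest level of HOXB3, 9.71. The control ranges of the upper and lower genes still overlapped, since HOXA5 lay at 2.95 and 4.59 in Control6 and HOXA3 reached 3.23 in another control library. From HOXA2 to HOXA6 the ranges again overlapped from neighbour to neighbour. HOXA2 (chromosome 7, 27100354 to 27102686, minus strand) measured 0.364 to 2.45, median 1.336, HOXA3 (chromosome 7, 27106184 to 27152583, minus strand) 0.785 to 3.23, median 1.13 and HOXB8 (chromosome 17, 48611377 to 48615292, minus strand) 0.772 to 1.30, median 1.13. The medians of HOXA7, HOXA4 and HOXA6 were 0.864, 0.718 and 0.622. HOXA4 (chromosome 7, 27128507 to 27130780, minus strand) lay lower in Control3 (0.268 and 0.301) than in the other control groups. The HOXC genes were lower still. HOXC8 (chromosome 12, 54008985 to 54012769, plus strand) measured 0.225 to 0.401, median 0.305, HOXC6 (chromosome 12, 53990624 to 54030823, plus strand) 0.0820 to 0.143, median 0.101 and HOXC4 (chromosome 12, 54016931 to 54056030, plus strand) 0 to 0.107, median 0.0559 in 4 control libraries.

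The genes numbered 9 and above were low in control cells. HOXA9 had a median level of 0.127 and HOXA10 of 0.0400. HOXA11 and HOXB9 were listed in the MS-275 table only, with 0 and 2 reads and with 0 and 0 reads in the Control3 libraries. Per kb of the main (MANE Select) transcript instead of all exons, the same count of 7 genes had a median level above 5, and HOXB3 moved from rank 7 to rank 1 because its annotated exons span 7.425 kb against a main transcript of 3301 bases.

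**Figure D1:**
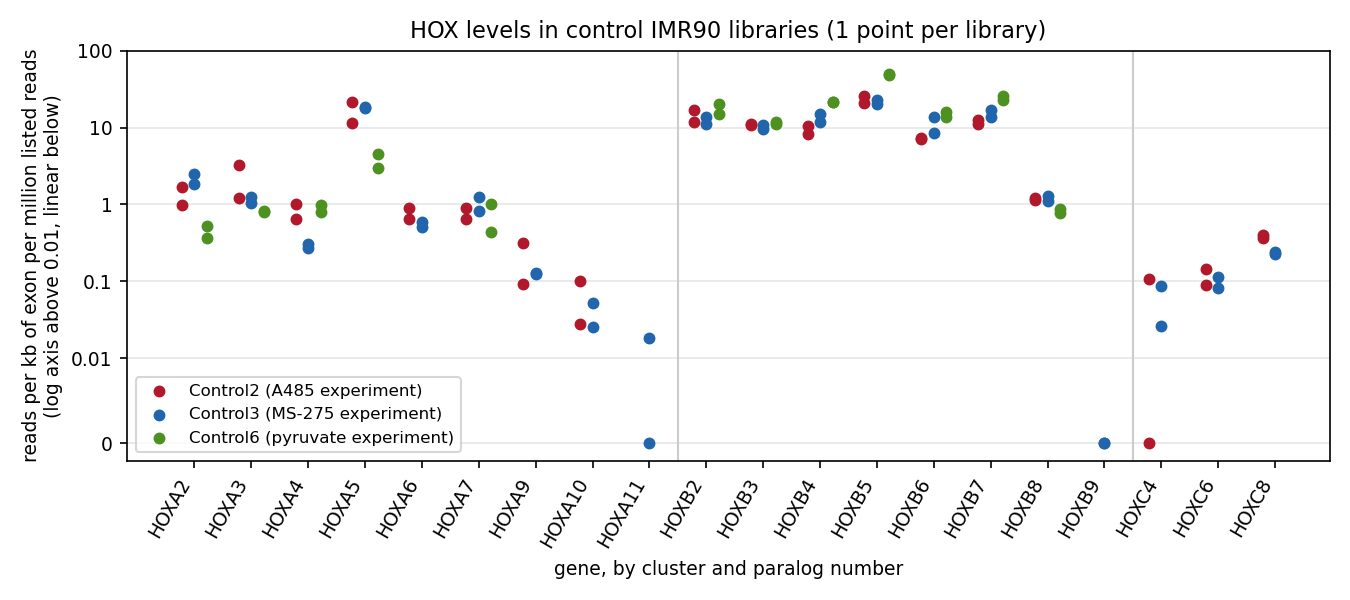
Levels of the 20 listed HOX genes in control IMR90 libraries, as reads per kb of exon per 1000000 listed reads (vertical axis, logarithmic above 0.01), with 1 point per library and a colour for each control group; vertical lines separate the HOXA, HOXB and HOXC clusters. HOXB2 to HOXB7 and HOXA5 form the top group, HOXA5 lies lower in the 2 Control6 libraries (2.95 and 4.59), and HOXB9 is at 0 in both Control3 libraries.

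Counted over all reads of these HOX genes, HOXB held 77.9% and 86.8% of them in the Control2 libraries, 82.1% and 84.1% in Control3, and 96.01% and 95.9% in Control6. HOXA held 21.5% and 12.7%, 17.5% and 15.6%, and 3.99% and 4.05%. After A485 the HOXA share was 36.2% and 25.98%, above both Control2 libraries. After MS-275 it was 13.1% and 10.8%, below both Control3 libraries, and the nearest pair had Wilson 95% intervals of 12.5% to 13.7% after MS-275 and 14.9% to 16.2% in Control3, which cover counting error only. After pyruvate it was 10.6% and 12.9%, above both Control6 libraries. These shares are not divided by gene length. HOXA5 gave most of the HOXA reads in every library of the A485 and MS-275 experiments. It gave 3396 of 4175 in A485 replicate 1 and 793 of 1433 in MS-275 replicate 1. In the pyruvate experiment its part was smaller, with 278 of 616 in pyruvate replicate 1. The HOXA share thus does not show that the cluster moved as a whole. No group overlapped its control, and 2 libraries against 2 are too few for an exact permutation test to pass 0.05, so none was made.

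The upstream sequences of 3 HOXA genes are shown as a description, and their part in the changes was not tested. HOXA2 and HOXA4 lie close together in the cluster and moved in opposite directions after pyruvate, and HOXA11 was listed with MS-275 only. HOXA2 and HOXA4 were both called with the authors' size factors. With a length and GC trend taken out of each library, HOXA2 gave a log2 fold change of 1.65 and HOXA4 -0.16, which was not called. RefSeq promoters (GRCh38.p14) were found for 9 of the 20 listed genes. Each line below gives bases 250 to 31 before the annotated start, 5′ to 3′ on the minus strand, which is the coding strand: HOXA2 at chr7:27102714-27102933, HOXA4 at chr7:27130788-27131007 and HOXA11 at chr7:27185263-27185482. Capitals mark matches on either strand to CCAAT and to TGATNNAT, a composite PBX-HOX motif, which do not overlap here; AGGTCA, a retinoic acid receptor half-site, and TATAAA were also searched.
HOXA2: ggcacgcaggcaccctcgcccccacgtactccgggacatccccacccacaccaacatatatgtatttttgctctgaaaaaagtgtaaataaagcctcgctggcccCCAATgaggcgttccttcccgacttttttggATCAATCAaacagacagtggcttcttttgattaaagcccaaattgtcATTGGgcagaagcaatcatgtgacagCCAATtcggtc
HOXA4: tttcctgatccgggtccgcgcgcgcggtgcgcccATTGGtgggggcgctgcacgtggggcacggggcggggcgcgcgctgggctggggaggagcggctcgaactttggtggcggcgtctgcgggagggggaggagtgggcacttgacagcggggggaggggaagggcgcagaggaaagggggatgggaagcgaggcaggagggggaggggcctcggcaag
HOXA11: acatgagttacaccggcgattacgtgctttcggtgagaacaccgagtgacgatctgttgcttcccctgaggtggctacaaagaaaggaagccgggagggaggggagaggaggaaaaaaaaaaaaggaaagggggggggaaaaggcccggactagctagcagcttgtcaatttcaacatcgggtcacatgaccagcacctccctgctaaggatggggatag
The HOXA2 window held 3 CCAAT matches and 1 PBX-HOX match, with 106 bases between it and the start. The HOXA4 window held 1 CCAAT match and the HOXA11 window none, and none of the 3 windows held AGGTCA or TATAAA. Among 35116 RefSeq promoter windows of the same length, 29.8% held CCAAT, 5.90% TGATNNAT, 10.8% AGGTCA and 8.08% TATAAA. The windows also differed in base composition: G and C made up 49.1% of HOXA2 with 8 CpG pairs, 74.1% of HOXA4 with 23, and 53.2% of HOXA11 with 9, against a median of 57.7% and 9 over all windows. A match is a run of letters and not a measured binding site.

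The A485 comparison asked how HOX expression changes when p300, which the study also treats as a writer of histone lactylation, is inhibited. HOXB3 and HOXB5 fell, and the other 16 of the 18 tested genes did not pass. Thus 2 of 18 HOX genes were called, against 10.4% of all 16084 genes tested, both of them lower (7.06% of all genes), and edgeR and DESeq2 also called 2 lower. At an unadjusted p under 0.05 there were 5 of 18, 1 higher and 4 lower, against 30.8% of all genes. In bulk RNA, fewer cells of a type and less RNA per cell cannot be told apart. The median log2 fold change was -0.54 over the 18 HOX genes, -0.62 over 7 HOXB genes and -0.07 over 8 HOXA genes (0.09 with a length and GC trend removed), against 0.01 over all genes.

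HOXB5, with the highest median level per kb of exon, measured 1687 and 2299.8 in the Control2 libraries and 581 and 587 in the A485 libraries. Both A485 libraries lay far below the controls (limma estimate -1.75 on the log2 scale, SE 0.22, adjusted p 0.00812), and the control mean of 1993 ± 434 compared with 584 ± 4.43 (SD, n = 2), 3.41-fold lower after A485. HOXB3, which acts in hindbrain and neck patterning, measured 3591 and 3879.9 in the Control2 libraries and 1919.9 and 1397 in the A485 libraries, again without overlap (limma estimate -1.19 on the log2 scale, SE 0.21, adjusted p 0.0208). A share of 11.7% of the annotated exon length of HOXB3 overlaps other genes, among them HOXB4 and HOXB-AS3, and since the strand setting of the counting is not given, such reads cannot be told apart.

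The rest of the HOXB cluster measured as follows. HOXB2 measured 1809 and 1401 in the Control2 libraries and 1172 and 909 in the A485 libraries (limma estimate -0.62 on the log2 scale, SE 0.23, adjusted p 0.13). HOXB4, known for its role in blood stem cells, measured 705 and 1006 in the Control2 libraries and 540.2 and 480.1 in the A485 libraries (limma estimate -0.72 on the log2 scale, SE 0.26, adjusted p 0.12). HOXB6 measured 830.4 and 885 in the Control2 libraries and 659 and 532 in the A485 libraries (limma estimate -0.53 on the log2 scale, SE 0.22, adjusted p 0.165). In these 3 genes both A485 libraries lay below both controls and none passed the threshold. HOXB8 measured 124 and 131 in the Control2 libraries and 109.6 and 68.6 in the A485 libraries (limma estimate -0.55 on the log2 scale, SE 0.41, adjusted p 0.412). HOXB7 measured 812 and 803 in the Control2 libraries and 1178 and 1233 in the A485 libraries (limma estimate 0.58 on the log2 scale, SE 0.18, adjusted p 0.0946), and its A485 libraries lay above both controls. Taking the 7 HOXB genes by position, 6 had both A485 libraries below both controls and HOXB7 alone had them above. Of all genes tested, 30.7% lay below and 30.4% above without overlap. These counts use the authors' size factors. As levels per kb of exon and 1000000 listed reads, HOXB2, HOXB6 and HOXB8 overlapped between groups. HOXB3, HOXB4 and HOXB5 still lay below and HOXB7 above on that scale.

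In the HOXA cluster, replicates spread more. HOXA5 measured 1614 and 951 in the Control2 libraries and 2862 and 1349 in the A485 libraries, and the groups overlapped (limma estimate 0.66 on the log2 scale, SE 0.42, adjusted p 0.335). HOXA2 measured 171 and 109 in the Control2 libraries and 151 and 104 in the A485 libraries and HOXA3 601 and 249.7 in the Control2 libraries and 267 and 189.7 in the A485 libraries, both with overlapping groups. HOXA4 measured 75.98 and 53.9 in the Control2 libraries and 42.98 and 23.2 in the A485 libraries, and here the A485 libraries lay below both controls without passing (limma estimate -0.995 on the log2 scale, SE 0.54, adjusted p 0.269). HOXA6 showed the same order of libraries (log2 fold change -0.90, adjusted p 0.294), and HOXA7, HOXA9 and HOXA10 overlapped between groups. The HOXC genes were low and overlapped in all 3 cases. HOXC8 measured 38.5 and 46.5 in the Control2 libraries and 10.96 and 46.3 in the A485 libraries, HOXC6 21.4 and 14.7 in the Control2 libraries and 16.9 and 33.8 in the A485 libraries, and HOXC4 12.8 and 0 in the Control2 libraries and 9.27 and 32.1 in the A485 libraries, with 0 in a single control library.

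The A485 calls rested on few libraries. When any 1 of the 4 libraries was left out, HOXB3 was no longer called (adjusted p 0.0828 to 0.131), and HOXB5 stayed called only without Control2 replicate 1, although the log2 fold changes kept their sign (-1.42 to -0.96 for HOXB3 and -1.98 to -1.53 for HOXB5). On the recovered reads edgeR gave HOXB3 an adjusted p of 0.0219 and HOXB5 0.00694, both past the threshold. With equal library totals, which moved the median of all genes by 0.40, HOXB5 was called and HOXB3 gave -0.80, under the fold change minimum, while HOXB2, HOXB4, HOXB6 and HOXB8 gave -0.23, -0.33, -0.14 and -0.16 and HOXB7 0.97. The summed fibroblast markers also fell between the groups, from 1.37e+06 and 1.53e+06 normalized reads in Control2 to 430004 and 503673 after A485. Of these markers 9 of 10 were called lower, against 7.06% of all genes. The 2 listed epithelial markers went opposite ways. EPCAM was called higher (64.2 and 47.7 in Control2, 208 and 177 after A485). CLDN4 lay below both controls and was not called (101.7 and 83.2 in Control2, 53.9 and 54.3 after A485, limma adjusted p 0.274). The part of these markers in the HOX values was not tested.

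**Figure D2:**
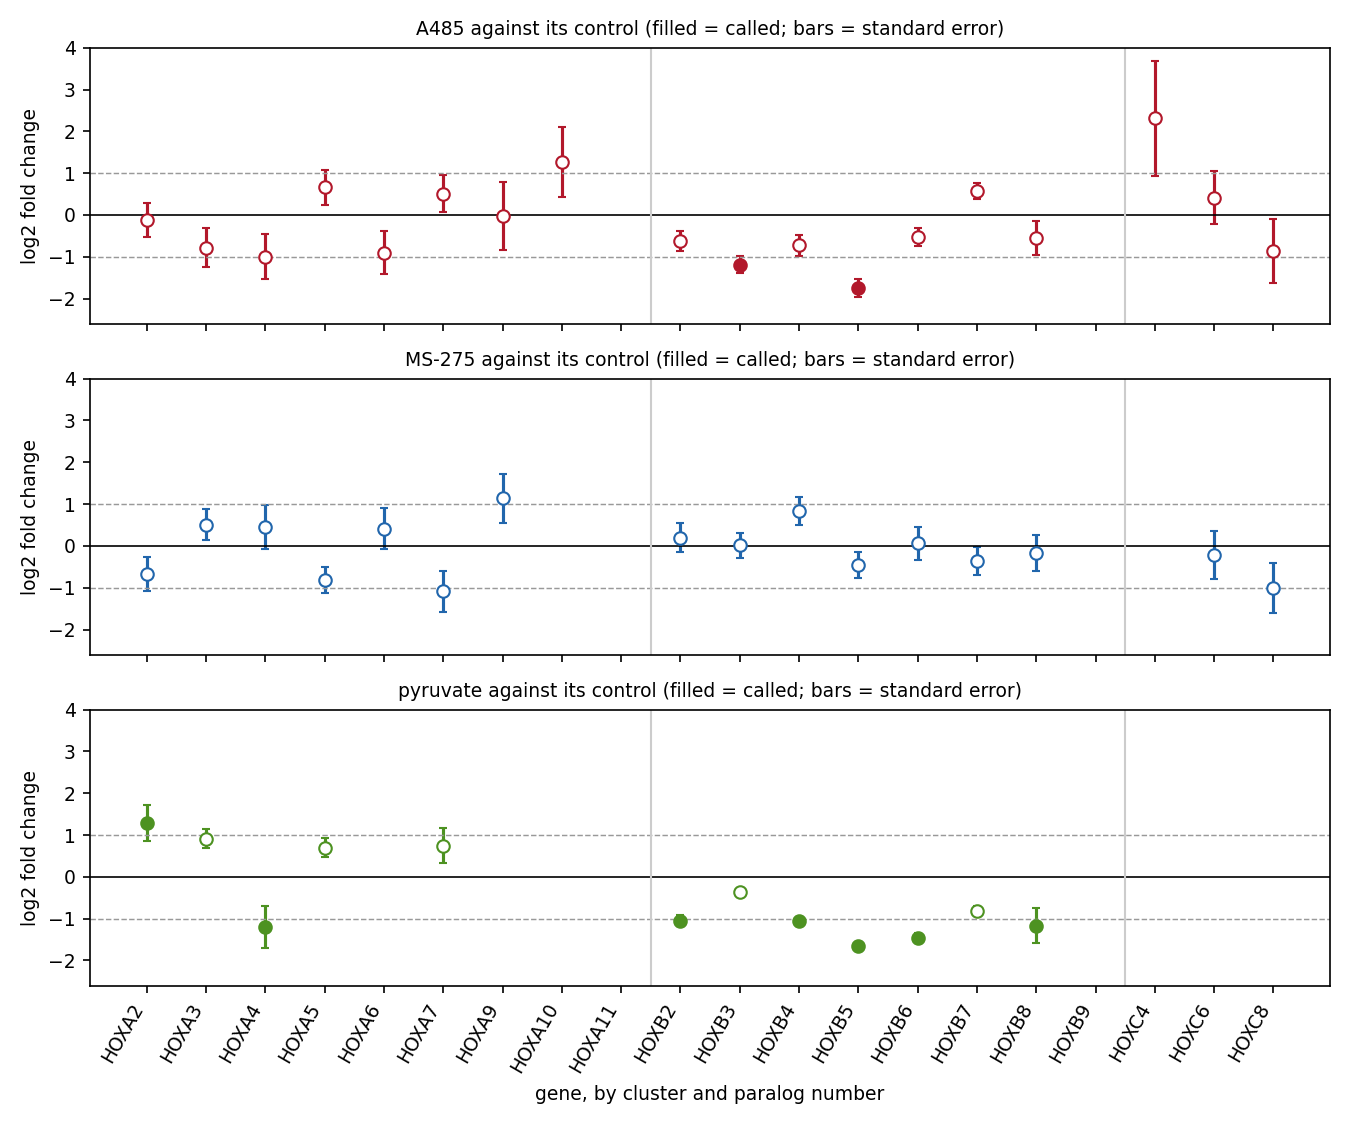
Log2 fold change of each tested HOX gene (vertical axis) by cluster and paralog number (horizontal axis) after A485, MS-275 and pyruvate; points are limma estimates from 2 treated and 2 control libraries, bars are standard errors, filled points passed both the adjusted p of 0.05 and the fold change minimum, and dashed lines mark 1 and -1. After A485 the filled points are HOXB3 (-1.19) and HOXB5 (-1.75), after MS-275 no point is filled, and after pyruvate all 7 HOXB genes lie below 0.

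The MS-275 comparison asked the same of class I deacetylase inhibition. No HOX gene among 16 tested was called by limma, and neither was any of the 15883 genes tested (0%). At an unadjusted p under 0.05 there was 1 of 16 HOX genes, against 10.9% of all genes, and no count tool was run on this table. The median log2 fold change of the 16 genes was -0.07, against -0.01 over all genes. HOXA5 measured 1282 and 1319 in the Control3 libraries and 768 and 712 in the MS-275 libraries, with both MS-275 libraries below both controls, but did not pass (limma estimate -0.81 on the log2 scale, SE 0.30, adjusted p 0.446).

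The other members of the HOXA cluster also separated by group in this table. All 7 tested HOXA genes had groups that did not overlap, 4 with MS-275 above and 3 with it below, where 38.9% of all genes tested did not overlap. HOXA2 measured 178 and 237 in the Control3 libraries and 108 and 151 in the MS-275 libraries (limma estimate -0.68 on the log2 scale, SE 0.40, adjusted p 0.661). HOXA3 measured 227 and 189 in the Control3 libraries and 336 and 259 in the MS-275 libraries (limma estimate 0.51 on the log2 scale, SE 0.36, adjusted p 0.739). HOXA4 measured 21.8 and 19.2 in the Control3 libraries and 34.9 and 22.9 in the MS-275 libraries (limma estimate 0.45 on the log2 scale, SE 0.52, adjusted p 0.888). Levels of HOXA2, HOXA5 and HOXA7 were thus lower and those of HOXA3, HOXA4, HOXA6 and HOXA9 higher in the MS-275 libraries, without passing the test. HOXA7 measured 127 and 81.9 in the Control3 libraries and 59.1 and 37.9 in the MS-275 libraries (log2 fold change -1.09, adjusted p 0.545), and HOXA9 15.8 and 16.2 in the Control3 libraries and 25.2 and 52.8 in the MS-275 libraries (log2 fold change 1.14, adjusted p 0.611).

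Some HOX genes at or near 0 reads in Control3 had more reads in the MS-275 libraries and did not pass. HOXB9 had 0 and 0 reads in the Control3 libraries and 18 and 16 in the MS-275 libraries. Set against a floor of 3 reads over the control group, it was at least 11.1-fold higher. HOXA11, which patterns the limb and the uterus, had 0 and 2 reads in control and 10 and 22 after MS-275, a ratio of 15.7 (95% exact interval 4.01 to 135, counting error only, and no test of a difference, since its control reads alone would not have listed it). HOXA10 measured 3.96 and 8.08 in the Control3 libraries and 14.5 and 11.96 in the MS-275 libraries, again without overlap, and HOXC4 9.90 and 3.03 in the Control3 libraries and 7.75 and 13.95 in the MS-275 libraries, with overlap. These 4 genes had means under 10. Fitted without that minimum, none passed (adjusted p 0.212 for HOXB9, 0.341 for HOXA11, 0.669 for HOXA10 and 0.855 for HOXC4). HOXA10, HOXA11 and HOXB9 reached 10 reads in the MS-275 libraries only, so their listing in this table fixed the order of their groups. For HOXA11, 27.2% of the exon length overlaps the antisense gene HOXA11-AS.

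No tested HOXB gene passed after MS-275. HOXB4 measured 1002 and 1253 in the Control3 libraries and 1802 and 2218 in the MS-275 libraries, with MS-275 above both controls (limma estimate 0.83 on the log2 scale, SE 0.33, adjusted p 0.474). HOXB5 measured 1784 and 1553 in the Control3 libraries and 1229 and 1199.8 in the MS-275 libraries, with MS-275 below both controls (limma estimate -0.45 on the log2 scale, SE 0.30, adjusted p 0.713). HOXB7 measured 875 and 1065 in the Control3 libraries and 662 and 848 in the MS-275 libraries and lay below as well (limma estimate -0.36 on the log2 scale, SE 0.34, adjusted p 0.83). The other HOXB genes overlapped between groups. HOXB3 measured 3020.0 and 3360.3 in the Control3 libraries and 3057 and 3405 in the MS-275 libraries, HOXB2 1133 and 1399 in the Control3 libraries and 1236 and 1684 in the MS-275 libraries and HOXB6 929 and 1488 in the Control3 libraries and 1047 and 1430.0 in the MS-275 libraries. Their log2 fold changes were 0.02, 0.20 and 0.06, and HOXB8, measuring 113 and 129 in the Control3 libraries and 137 and 84.7 in the MS-275 libraries, gave -0.17. HOXC8 measured 22.8 and 24.3 in the Control3 libraries and 15.5 and 7.97 in the MS-275 libraries, with MS-275 below (log2 fold change -1.01, adjusted p 0.657), and HOXC6 11.9 and 16.2 in the Control3 libraries and 11.6 and 11.96 in the MS-275 libraries, with overlap. In this table, same-numbered treated and control libraries deviated together (correlation 0.728 across genes), and the adjusted p values with the replicate number in the fit are given with the processing alternatives at the end.

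Whether both inhibitors moved the HOX genes differently was tested as a limma contrast of the A485 effect minus the MS-275 effect over 8 libraries. None of 16 HOX genes passed, against 3.81% of 15130 genes, and 6 of 16 had an unadjusted p under 0.05, against 17.6%. The number that passed changed with the replicate number in the fit, as given with the processing alternatives at the end. HOXB4 had the smallest p: its log2 fold change was -0.72 after A485 and 0.83 after MS-275 (difference -1.56, SE 0.42, adjusted p 0.1). HOXB5 differed by -1.30 (SE 0.37, adjusted p 0.12) and HOXB3 by -1.21 (SE 0.36, adjusted p 0.135). HOXA5 went the other way by 1.48 (SE 0.58, adjusted p 0.247).

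**Figure D3:**
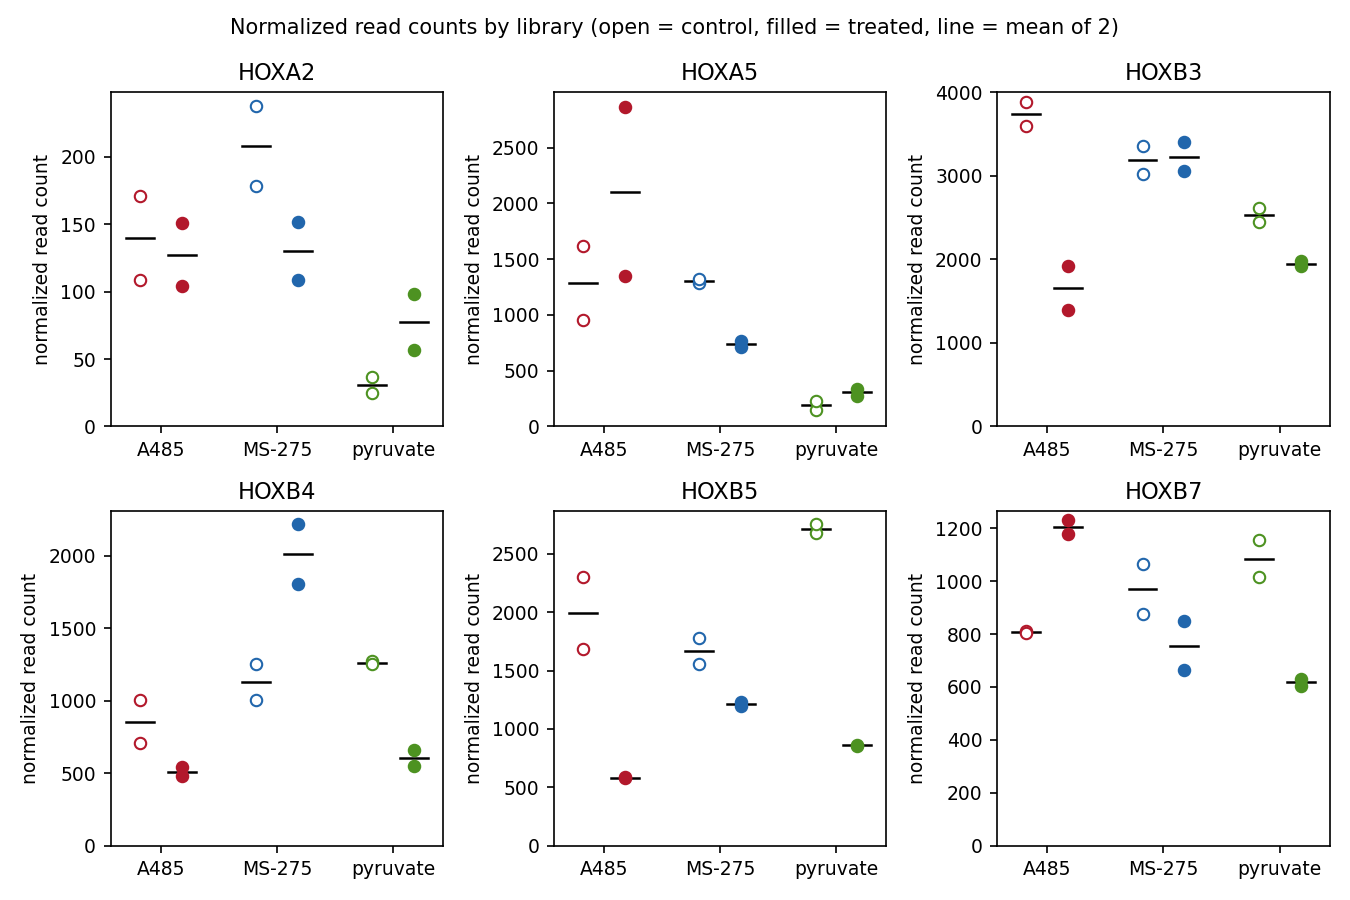
Normalized reads (vertical axis, linear from 0) of 6 HOX genes in each of the 12 IMR90 libraries, by experiment; open points are control libraries, filled points treated libraries, and short lines the mean of 2. HOXA2 lies below its controls with MS-275 (not called) and above them after pyruvate (called), HOXB5 lies below its controls in all 3 experiments (again not called after MS-275), and each experiment was normalized on its own, so heights compare only within an experiment.

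The pyruvate comparison asked how the HOX genes differ when senescent cells receive pyruvate. With the deposited scaling, 5 of 7 HOXB genes and HOXA4 were called lower and HOXA2 higher: 7 of 12 HOX genes were called, against 54.1% of all 12013 genes tested, with 1 higher (31% of all genes) and 6 lower (23.1%). With no fold change minimum 11 of 12 passed, against 80.9%. The groups did not overlap for 12 of 12 genes, against 90.5% of all genes. The fold changes of this table followed GC content across genes (Spearman rho -0.716 over 11890 genes, a description, since genes are not replicates), and the 7 HOXB genes are GC-rich, with a median of 56.0% against 48.5% over all genes tested and 54.1% over 5 HOXA genes. With a length and GC trend taken out of each library, 4 genes were higher (HOXA2, HOXA3, HOXA5 and HOXA7) and 0 lower, against 29% of all genes called. With equal library totals 4 were higher and 2 lower, so every count for pyruvate carries its scaling.

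HOXB5 measured 2677 and 2757 in the Control6 libraries and 865 and 856 in the pyruvate libraries, the widest gap between groups among the HOXB genes (limma estimate -1.66 on the log2 scale, SE 0.08, adjusted p 7.14e-09). It was called under deposited scaling and kept its sign with the GC trend removed (log2 fold change -0.74, adjusted p 4.07e-06), below the fold change minimum. HOXB6 measured 1063 and 1224 in the Control6 libraries and 411 and 418 in the pyruvate libraries (limma estimate -1.46 on the log2 scale, SE 0.12, adjusted p 3.55e-07), and without the trend its log2 fold change was -0.41. HOXB6 shares 32.9% of its exon length with HOXB-AS3 and HOXB3, and HOXB-AS3 itself measured 1080.4 and 1224 in the Control6 libraries and 437 and 367 in the pyruvate libraries (limma estimate -1.52 on the log2 scale, SE 0.13, adjusted p 5.35e-07). HOXB2 measured 1101 and 1449.6 in the Control6 libraries and 630.1 and 594 in the pyruvate libraries (limma estimate -1.05 on the log2 scale, SE 0.13, adjusted p 1.7e-05). HOXB4 measured 1270.0 and 1251 in the Control6 libraries and 659.6 and 551 in the pyruvate libraries (limma estimate -1.06 on the log2 scale, SE 0.11, adjusted p 4.15e-06). HOXB8 measured 55.00 and 60.8 in the Control6 libraries and 23.6 and 26.8 in the pyruvate libraries (limma estimate -1.17 on the log2 scale, SE 0.42, adjusted p 0.0242). In all 3, both pyruvate libraries lay well below both controls, yet without the trend their log2 fold changes were -0.08, -0.03 and -0.18, and none was called.

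HOXB3 and HOXB7 fell by less than the minimum. HOXB3 measured 2446 and 2614 in the Control6 libraries and 1921 and 1979 in the pyruvate libraries (limma estimate -0.37 on the log2 scale, SE 0.08, adjusted p 0.000778), and its sign turned to 0.33 without the trend (adjusted p 0.0014). HOXB7 measured 1017 and 1154 in the Control6 libraries and 604 and 631 in the pyruvate libraries (limma estimate -0.81 on the log2 scale, SE 0.11, adjusted p 2.99e-05), and -0.24 without the trend.

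HOXA2, which specifies second branchial arch structures, measured 36.3 and 24.96 in the Control6 libraries and 57.02 and 97.9 in the pyruvate libraries, with both pyruvate libraries above both controls (limma estimate 1.28 on the log2 scale, SE 0.43, adjusted p 0.0161). Its log2 fold change was 1.65 without the trend and 0.90 without pyruvate replicate 2, where it was no longer called (adjusted p 0.217). HOXA4, with the GC-rich upstream sequence given earlier, measured 40.3 and 49.9 in the Control6 libraries and 22.6 and 15.7 in the pyruvate libraries (limma estimate -1.21 on the log2 scale, SE 0.50, adjusted p 0.0428), lost its call when any 1 of the 4 libraries was left out (adjusted p 0.0604 to 0.198), and gave -0.16 without the trend. HOXB8 likewise lost its call without Control6 replicate 2 or either pyruvate library (adjusted p 0.0582 to 0.0987).

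HOXA3, HOXA5 and HOXA7 were higher in the pyruvate libraries. HOXA3 measured 100.2 and 105 in the Control6 libraries and 179.9 and 209 in the pyruvate libraries (limma estimate 0.91 on the log2 scale, SE 0.23, adjusted p 0.00296). HOXA5 measured 150.3 and 232 in the Control6 libraries and 273 and 336 in the pyruvate libraries (limma estimate 0.70 on the log2 scale, SE 0.23, adjusted p 0.0146). Both passed the adjusted p and not the fold change minimum, and without the trend both were called (log2 fold changes 1.696 and 1.09). With quantile normalization neither passed (0.22 and 0.06, adjusted p 0.374 and 0.794), and without Control6 replicate 1 or pyruvate replicate 2 HOXA5 gave 0.38 and 0.55 (adjusted p 0.0685 and 0.0715). HOXA7 measured 72.7 and 31.5 in the Control6 libraries and 72.7 and 89.6 in the pyruvate libraries, where the lower pyruvate library exceeded the higher control by under 1 read, and did not pass (limma estimate 0.74 on the log2 scale, SE 0.42, adjusted p 0.125). HOXA4, HOXA6 and HOXA7 share 47.8%, 40.1% and 62.5% of their exon length with antisense or overlapping transcripts, so part of their reads cannot be assigned. HOXA-AS3 overlaps each of them and HOXA-AS2 overlaps HOXA4. For HOXA4, 31.3% of the exon length is shared with a transcript on its own strand.

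**Figure D4:**
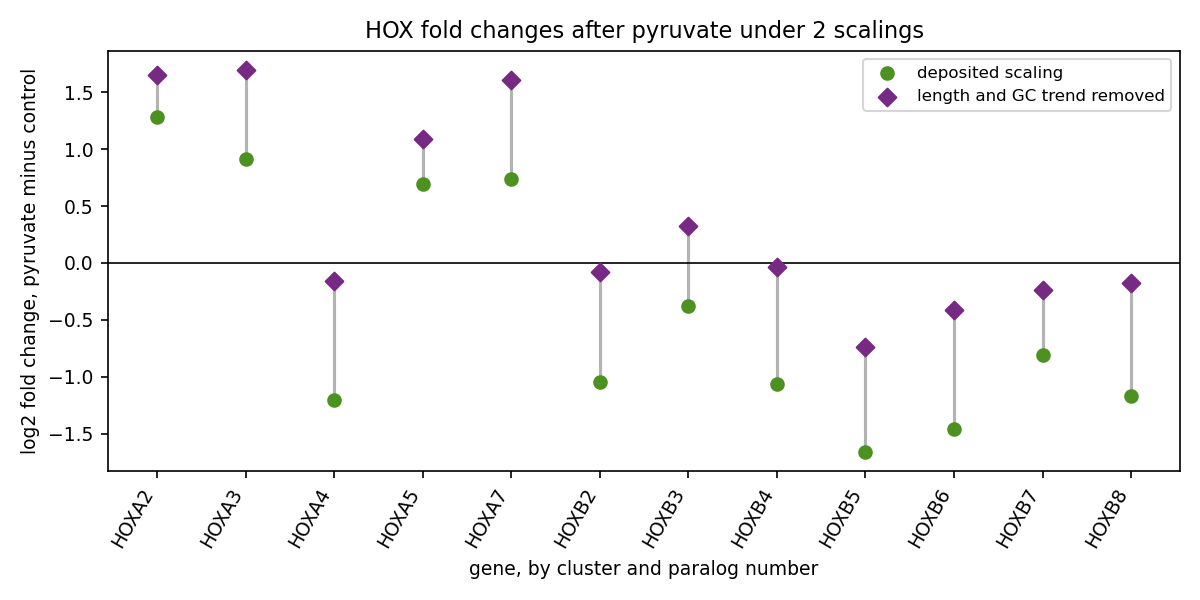
Log2 fold change after pyruvate (vertical axis) of the 12 listed HOX genes, with the deposited scaling (circles) and after removal of a length and GC trend from each library (diamonds); a line joins both values of a gene. HOXA2 moves from 1.28 to 1.65, HOXB2, HOXB4 and HOXB8 move to near 0, and HOXB3 changes sign from -0.37 to 0.33.

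Among the noncoding genes of the clusters, 6 were listed with A485 and MS-275 and 5 with pyruvate. None of 6 was called after A485, against 10.4% of all genes, and 2 had an unadjusted p under 0.05, against 30.8%. None of 6 was called after MS-275, against 0%, and 0 reached the unadjusted level, against 10.9%. After pyruvate 1 of 5 was called, HOXB-AS3, which was lower, against 23.1% of all genes called lower. HOXA-AS2, which overlaps HOXA3 and HOXA4, measured 318 and 204 in the Control2 libraries and 89.3 and 110.4 in the A485 libraries (limma estimate -1.35 on the log2 scale, SE 0.38, adjusted p 0.0681). HOXB-AS2 measured 81.3 and 51.4 in the Control2 libraries and 11.8 and 32.96 in the A485 libraries (limma estimate -1.66 on the log2 scale, SE 0.66, adjusted p 0.153). After MS-275 the smallest p values belonged to HOTAIRM1 of the HOXA cluster (47.5 and 79.8 in the Control3 libraries and 92.96 and 112 in the MS-275 libraries, adjusted p 0.699) and HOXB-AS1 (adjusted p 0.793).

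The TALE cofactors, which set the DNA specificity of HOX proteins, were set beside the members. After A485, 1 of 7 tested was called and it was lower, against 7.06% of all genes. MEIS1 measured 3173 and 2352 in the Control2 libraries and 1264 and 884 in the A485 libraries (limma estimate -1.37 on the log2 scale, SE 0.25, adjusted p 0.0241). MEIS2, PKNOX1, MEIS3 and PBX4 also lay below both controls without passing (log2 fold changes -0.64, -0.61, -0.48 and -0.29, adjusted p 0.0647, 0.0652, 0.159 and 0.736). PBX3 and PKNOX2 gave 0.30 and -0.24, PBX2 had a mean under 10, and the median of the 7 was -0.48 against 0.01 over all genes. After MS-275 none of 8 passed. MEIS2 measured 2649 and 1708 in the Control3 libraries and 1326 and 602 in the MS-275 libraries (limma estimate -1.25 on the log2 scale, SE 0.51, adjusted p 0.501). The other 7 had log2 fold changes from -0.32 (MEIS1) to 0.72 (PBX2).

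After pyruvate 5 of 6 TALE genes were called, against 54.1% of all genes, with 4 higher (31% of all genes) and 1 lower (23.1%). MEIS1 measured 247 and 271 in the Control6 libraries and 1485 and 1509 in the pyruvate libraries (limma estimate 2.53 on the log2 scale, SE 0.12, adjusted p 4.24e-09). It rose while most HOXB genes fell under this scaling. MEIS2, PKNOX1 and PBX3 rose too, with log2 fold changes of 2.31, 1.31 and 1.31, and MEIS3 fell (-1.19). With the length and GC trend removed MEIS1 dropped below the minimum at 0.98, MEIS2, PBX3 and PKNOX1 gave 0.60, 0.44 and 0.30, and MEIS3 turned to 0.14. PKNOX2 overlapped between groups (-0.11).

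**Figure D5:**
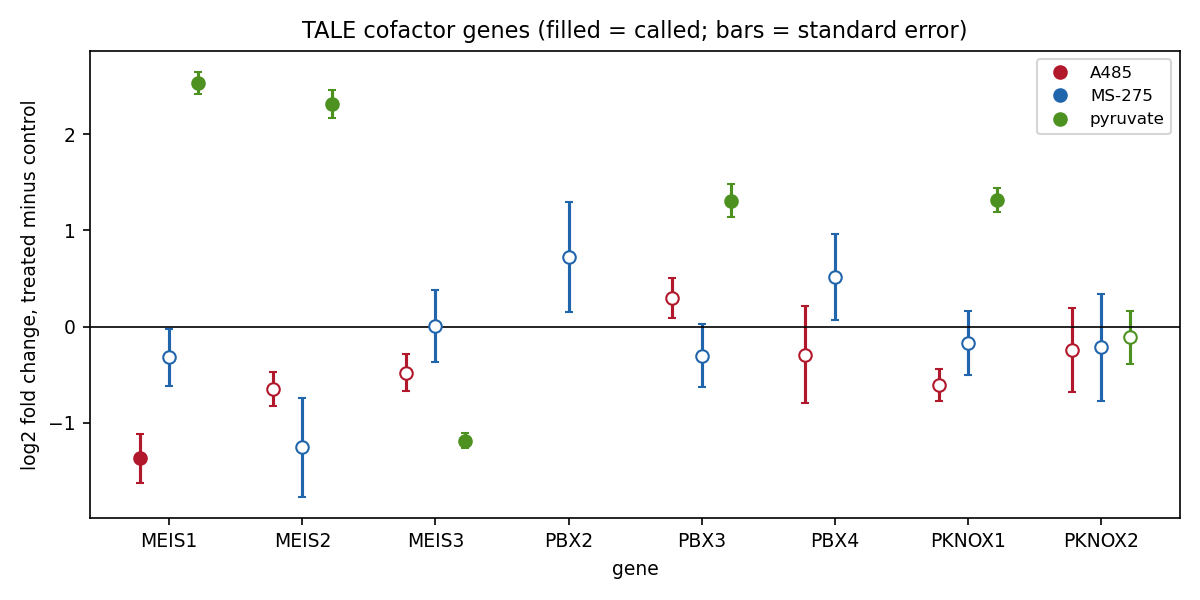
Log2 fold change (vertical axis) of the TALE cofactor genes after A485, MS-275 and pyruvate, as limma estimates from 2 treated and 2 control libraries with standard errors; filled points were called. MEIS1 is at -1.37 after A485 and 2.53 after pyruvate, and no MS-275 point is filled.

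The retinoic acid genes, whose products supply, bind and degrade the inducer of low-numbered HOX genes, had 4 of 9 tested members called after A485, all lower, against 7.06% of all genes, and their median log2 fold change was -0.98. CRABP2, a retinoic acid carrier, measured 151 and 282 in the Control2 libraries and 10.96 and 12.5 in the A485 libraries (limma estimate -4.03 on the log2 scale, SE 0.51, adjusted p 0.00838). DHRS3, a retinaldehyde reductase, gave -3.47 (adjusted p 0.00711), RDH10, which makes retinaldehyde, -2.25 (adjusted p 0.00594), and the receptor RXRA -1.07 (adjusted p 0.0135). After MS-275 none of 9 was called, and the smallest p values belonged to RARA (0.94, adjusted p 0.388) and RDH10 (-0.81, adjusted p 0.458). After pyruvate 3 of 8 were called, against 54.1% of all genes: ALDH1A3, which makes retinoic acid, was higher (30.4 and 15.2 in the Control6 libraries and 645 and 797 in the pyruvate libraries, log2 fold change 4.99, 4.77 without the trend), and RXRA and RARG were lower (-1.23 and -1.08, -0.55 and -0.07 without it).

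Other regulators of lung mesenchyme were set beside the HOX genes. After A485, 5 of 8 were called, all lower, against 7.06% of all genes, and all 8 had both A485 libraries below both controls, against 30.7%. TBX2 measured 7858 and 8253 in the Control2 libraries and 2019 and 1796 in the A485 libraries (limma estimate -2.08 on the log2 scale, SE 0.16, adjusted p 0.00239), FOXF1 9832 and 12478 in the Control2 libraries and 2999 and 2611 in the A485 libraries (limma estimate -1.98 on the log2 scale, SE 0.19, adjusted p 0.00377) and TCF21 gave -1.13 (adjusted p 0.0349), with WNT2 at 85.6 and 277 in control and 0 and 3.56 after A485. After MS-275 none of 8 was called, with TCF21 (934 and 1139 in the Control3 libraries and 5072 and 4626 in the MS-275 libraries, adjusted p 0.163) and WNT2 (adjusted p 0.577) at the smallest p. After pyruvate 3 of 7 were called, against 54.1% of all genes, TBX3 higher (1.07) and TBX2 and TCF21 lower (-1.12 and -1.01), of which TBX2 and TCF21 gave -0.0034 and -0.15 without the trend.

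Genes of the MLL and elongation complexes, which maintain HOX transcription, showed 0 of 14 calls after A485 by limma, against 10.4% of all genes. At an unadjusted p under 0.05 there were 3, against 30.8%. After MS-275 there were 0 of 14 calls, against 0%, and 0 at the unadjusted level, against 10.9%. The smallest p values belonged to MLLT3 (0.67, adjusted p 0.101) and DPY30 (0.50, adjusted p 0.143) after A485, and to WDR5 (-0.59, adjusted p 0.646) and ASH2L (-0.38, adjusted p 0.778) after MS-275. After pyruvate 7 of 14 were called, near the 54.1% of all genes, with 5 higher and 2 lower, led by AFF4 (2.50), KDM6A (3.02), PSIP1 (2.21) and MEN1 (-1.19), which gave 0.58, 1.53, 0.52 and -0.12 without the trend.

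Protein-coding neighbours starting within 500 kb of the HOXA and HOXB clusters were compared with the genes inside them. After A485 none of 12 tested neighbours was called, against 2 of the 15 HOXA and HOXB genes considered and 10.4% of all genes. At an unadjusted p under 0.05 there were 2 of 12, against 30.8% of all genes. With so few genes, these counts do not tell the clusters from their surroundings. The smallest p values were those of IGF2BP1 (-0.76, adjusted p 0.0485) and TTLL6 (3.02, adjusted p 0.143), which made up these 2. TTLL6 measured 0 and 7.34 in the Control2 libraries and 31.2 and 16.0 in the A485 libraries. It reached 10 reads in the A485 libraries only, so its listing in this table fixed the order of its groups. After MS-275 none of 15 was called, with B4GALNT2 (2.83, adjusted p 0.274) and TTLL6 (1.95, adjusted p 0.384) at the smallest p. After pyruvate 7 of 12 were called, near the 54.1% of all genes, with 3 higher and 4 lower, among them SKAP2 beside HOXA (2.58, 0.79 without the trend) and, beside HOXB, NFE2L1 (-1.43), COPZ2 (-1.89), UBE2Z (-1.17) and SNX11 (-1.41), which gave -0.95, -0.90, -0.51 and -0.97 without the trend. Near HOXC, ITGA5 fell and CALCOCO1 rose after A485 (-1.26 and 1.21, 2 calls of 14 neighbours, against 10.4% of all genes). After MS-275 none of 14 was called, with ZNF385A (2.01, adjusted p 0.249) and ITGA5 (0.89, adjusted p 0.375) at the smallest p. After pyruvate 7 of 13 were called, again near that share, led by CBX5 (3.72), HNRNPA1 (2.63), CALCOCO1 (-1.71) and ITGA5 (-1.03). Of the HOXD neighbours 2 were tested, and none was called in any comparison.

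The mouse muscle tables of the same series held another HOX pattern. By the study's methods the tissue was gastrocnemius. MS-275 was injected into this muscle in female mice, and sodium lactate into muscle of aged mice. They listed 13 genes in the MS-275 experiment and 11 in the NALA (sodium lactate) experiment, of which 7 and 7 were numbered 9 to 13, and 4 and 4 belonged to Hoxd, a cluster with no member listed in IMR90. No Hoxb gene was listed in muscle. Hoxd11 was the highest by value, at 739 to 1926 normalized reads over the 4 libraries of the MS-275 experiment, treated and control together. Species, tissue and depth differ between these tables and the IMR90 tables, so the lists are a description.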

How the data were processed

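The authors trimmed reads with Trim Galore (version 0.6.10), aligned them with HISAT2 (version 2.2.1) to hg38, used SAMtools (version 1.7), counted reads with featureCounts (version 2.0.6) and normalized them with DESeq2 (version 1.34.0), per the labels and methods. What the authors deposited is a signal per gene: its read count over the size factor of the library. The annotation and strand setting of the counting are not given in the sources used here. Libraries were grouped by title. Dividing a library by its smallest step gave whole reads for 100% of values (tolerance 0.05 read), from which depth was taken. Values were transformed to log2(value + 1), genes with a mean of at least 10 were kept, and each treatment was compared with its own control by limma 3.58.1 (R 4.3.3), letting the prior variance follow intensity, without covariates, and with Benjamini-Hochberg adjustment. On the A485 table edgeR (version 4.0.16) and DESeq2 (version 1.42.0) were run on recovered reads as alternatives. They were not run on the MS-275 and pyruvate tables, where a separate test of the low values did not accept the recovered step. Levels, cluster shares, counting intervals and read counts of those tables still rest on that step, which gave whole reads for 100% of their values. Gene positions, exon lengths and GC content came from GENCODE release 44, whose build is that of the alignment, and 17250 of 17554 symbols matched. Promoters came from RefSeq. Exact binomial intervals and Wilson intervals at 95% cover counting error only, since no molecular identifiers are named in the sources used here. Replicates differed by more than sampling noise (chi-square per gene 4.54 to 458), and all were kept. Same-numbered libraries deviated together with correlations of 0.316, 0.728 and 0.002 in the A485, MS-275 and pyruvate experiments, and the labels do not say that a number marks a shared batch. The limma fit, and edgeR for A485, were also run on simulated counts with known changes, drawn independently for each library. That simulation held no shared deviation of same-numbered libraries, so it does not bear on the replicate block. The members, gene lists and tests were chosen with earlier results of these data known. Named were the listed HOX genes, with library values for those called in any comparison, those with an unadjusted p under 0.05 after A485 or MS-275, and the 3 highest per kb in each cluster; from other lists the called members, or the 4 with the smallest p if more, or 2 if none was called. HOXA11, HOXB9 and HOXA10 after MS-275 were named after their values were seen. 1 HOX gene and 1 TALE gene are not reported here and are left out of every count of members. Tables were handled in Python 3.11.15 with pandas 2.3.3, numpy 2.4.6 and scipy 1.17.1, and plots drawn with matplotlib 3.10.9.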

Additional observations from a re-analysis of the deposited data

Results flagged for a closer look

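Several HOX genes had both treated libraries on opposite sides of their controls in the pyruvate experiment and in an inhibitor experiment. These differences between effects were not tested, the experiments have separate controls, and the pyruvate values depend on the scaling. HOXB7 was higher after A485 and lower after pyruvate, a difference of 1.39. HOXA4 and HOXB4 were higher in the MS-275 libraries and lower after pyruvate, by 1.66 and 1.90. HOXA2, HOXA5 and HOXA7 were lower in the MS-275 libraries and higher after pyruvate, with differences of -1.96, -1.51 and -1.83 (MS-275 minus pyruvate). None of these genes was called after MS-275. Groups of 2 libraries are too small for an outlier check.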

How the results depend on the processing

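After A485, 2 of the HOX genes considered were called lower. With equal library totals or without the intensity trend 1 was called lower, and leaving out each library in turn gave 0 to 1 lower. After MS-275, 0 were called. The replicate block gave 1 lower (HOXA7, adjusted p 0.014), with adjusted p values of 4.3e-05 for HOXB4, 0.000139 for HOXA5, 0.00842 for HOXB5, 0.0291 for HOXA2 and 0.0475 for HOXB7, whose fold changes were under the minimum, and no other setting called any of the HOX genes considered. Over all genes of that table the block called 2183, and leaving out Control3 replicate 1, Control3 replicate 2 or MS-275 replicate 1 called 390, 419 and 12, with 0 HOX genes among them. After pyruvate, 1 was higher and 6 lower. Quantile normalization gave 0 higher, equal library totals 4 higher and 2 lower, removal of the length and GC trend 4 higher and 0 lower, and a minimum of 0.58 or none 3 higher. Leaving out each library gave 0 to 2 higher and 3 to 5 lower. HOXB3 after pyruvate reversed to 0.33 without the trend. Effects of A485 and MS-275 differed for 0 HOX genes, and for 6 with the replicate block (HOXB4, HOXB5, HOXB3, HOXA5, HOXA7 and HOXA3). The replicate block changed no other count of HOX genes by more than 1.5 times, and it took the call from HOXA4 after pyruvate (adjusted p 0.0538). Over all genes, the 1667 calls after A485 became 2584 with equal library totals, 840 without the intensity trend and 117 to 844 with a library left out, and the 576 genes whose effects differed became 3110 with the replicate block and 133 to 416 with a library left out. The causes of these changes were not tested. With equal library totals the median over all genes moved to 0.40 after A485, -0.15 after MS-275 and 0.30 after pyruvate. Over the alternatives of the single genes with a call or an unadjusted p under 0.05, 71 of 80 values after A485 kept direction and side of the threshold, 14 of 14 after MS-275 and 121 of 152 after pyruvate. Fits without a library leave a group with 1 library, assumed to vary like the others. The level count of 7 genes held per kb of the MANE Select transcript and in the Control2 and Control3 libraries alone, both added after seeing the data. Without the minimum of 10, 0 HOX genes were called after MS-275.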
